A study of Mus musculus with 9 samples.

Results

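Heat shock proteins are chaperones, proteins that bind other proteins while they fold, travel or come apart. The 10 genes described here were taken by symbol from 31053 listed genes and cover the main cytosolic families and the chaperone of the endoplasmic reticulum (ER). They are the small heat shock proteins Cryab and Hspb1, the HSP70 genes Hspa8, Hspa1a and Hspa5, the HSP90 genes Hsp90aa1 and Hsp90ab1, the HSP110 gene Hsph1, and the J proteins Dnaja1 and Dnajb1. Their nuclear RNA was measured by single-nucleus RNA-seq in pooled cortex and hippocampus of wild-type male C57BL/6 mice, with 3 mice in each of 3 groups and 1 library per mouse. The young AAV-EGFP group was 5 months old at collection, and both aged groups, AAV-EGFP and AAV-B3GNT3, were 19 months old. Every mouse, the young controls included, had received 8e11 vector genomes of an adeno-associated virus (AAV) behind the eye 8 weeks earlier. The capsid was PHP.V1 and a shortened CLDN5 promoter directed expression to brain endothelial cells, the cells that line brain vessels. The vector encoded EGFP alone, or EGFP together with B3GNT3, a glycosyltransferase that lengthens O-linked sugar chains of mucins. Ageing here means aged AAV-EGFP against young AAV-EGFP, and treatment means aged AAV-B3GNT3 against aged AAV-EGFP. Both comparisons use the same aged AAV-EGFP libraries, so their values are not independent.

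As background, small heat shock proteins hold unfolding proteins without using ATP. HSP70 proteins bind and release short stretches of unfolded protein, J proteins bring them their clients and start ATP hydrolysis, and HSP110 exchanges the nucleotide so that the client is released. HSP90 takes over clients late in folding, among them many kinases and steroid receptors. Hspa8 and Hsp90ab1 are made constitutively, Hspa1a, Hspb1, Dnajb1 and Hsph1 rise under heat shock through heat shock factor 1 (HSF1), and Hspa5 (also called BiP) rises under ER stress. In brain, Cryab is known as a gene of oligodendrocytes and of reactive astrocytes.

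HSF1 binds inverted repeats of a short unit, and the letters GAANNTTC or TTCNNGAA (N is any base, either strand) were searched as a 2-unit heat shock element in the 250 bases before each RefSeq start site (build GRCm38.p6). Of 32851 such windows over all genes, 12.8% held it, and 0.466% held the 3-unit form GAANNTTCNNGAA or its reverse complement. The ER stress element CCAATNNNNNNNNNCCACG was found in 0.113% of windows. Windows were available for 6 of the 10 genes, Hspb1, Hspa5, Hspa1a, Hsph1, Dnaja1 and Dnajb1. Cryab, Hspa8, Hsp90aa1 and Hsp90ab1 had no window and were not searched. None of the windows searched for these genes held the 3-unit form. The windows of Hspb1 and Hspa1a are shown because these RNAs were concentrated in vessel cells, with the 2-unit elements in capitals. In Hspb1 they start 117 and 97 bases before the start site on the plus strand, and in Hspa1a the element starts 104 bases before it on the minus strand.
Hspb1, chr5:135887669-135887918, plus strand: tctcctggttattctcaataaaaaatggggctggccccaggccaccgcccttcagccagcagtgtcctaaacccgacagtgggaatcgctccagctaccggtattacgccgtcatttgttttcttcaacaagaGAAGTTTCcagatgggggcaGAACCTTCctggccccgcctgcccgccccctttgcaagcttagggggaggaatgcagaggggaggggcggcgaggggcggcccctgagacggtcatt
Hspa1a, chr17:34972157-34972406, minus strand: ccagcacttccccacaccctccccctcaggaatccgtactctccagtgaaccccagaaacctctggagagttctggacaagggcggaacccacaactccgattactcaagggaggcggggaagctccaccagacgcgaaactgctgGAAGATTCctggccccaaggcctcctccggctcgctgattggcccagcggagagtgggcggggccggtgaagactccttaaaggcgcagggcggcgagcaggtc

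For Hsph1, Dnaja1 and Hspa5, which changed with age or treatment, 30 bases around the matched element are shown, with the 2-unit heat shock element of Hsph1 and Dnaja1 and the ER stress element of Hspa5 in capitals. They start 33, 124 and 65 bases before the RefSeq start site used, and all 3 lie inside the gene spans of GENCODE vM21, which begin further upstream. Of 3 start sites listed for Dnaja1, the windows of the other 2 held no such element, and the Dnajb1 windows held none of these letters. A match is a description of the letters, not of binding.
Hsph1, chr5:149636351-149636380, minus strand: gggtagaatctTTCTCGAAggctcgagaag
Dnaja1, chr4:40722333-40722362, plus strand: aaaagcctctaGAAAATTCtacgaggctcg
Hspa5, chr2:34772019-34772048, plus strand: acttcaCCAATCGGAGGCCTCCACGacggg

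The libraries held 47332047 to 79964605 unique molecular identifiers (UMIs, single captured RNA molecules), and 70448 nuclei passed the filters on genes and doublets, 5793 to 9288 per library. Clusters were named from fixed marker genes as excitatory neuron-like (19215 nuclei), inhibitory neuron-like (11006), astrocyte-like (8455), oligodendrocyte-like (20341), oligodendrocyte precursor-like (2789), microglia-like (2310), brain endothelial cell-like (745), pericyte-like (986), fibroblast-like (562) and choroid plexus epithelial cell-like (116), and are called by those cell names from here on. A further 3923 nuclei in clusters without enough markers stayed unnamed. The inhibitory class includes a cluster of 3716 nuclei led by Rarb, Drd2 and Rgs9, genes of striatal neurons, although the labelled tissue is cortex and hippocampus. Of 77823 barcodes, 734 occurred in more than 1 library. Brain endothelial nuclei held 8, 3 and 1 UMIs of B3gnt3 in young AAV-EGFP replicates 1 to 3, 0 in each aged AAV-EGFP library, and 0, 3 and 4 in aged AAV-B3GNT3, so this gene does not check the vector labels.

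Levels are given as CPM, counts of a gene scaled to 1000000 UMIs of a class in a library, scaled between libraries by TMM, and in the order replicate 1, 2 and 3. Over the 9 libraries, Cryab was highest in oligodendrocytes, at 113 ± 58.3 CPM (mean ± SD, n = 9), and stood above the class ranked next, fibroblasts, in all 9 libraries. Fibroblasts, pericytes, microglia, brain endothelial cells, astrocytes and oligodendrocyte precursors followed between 28.1 and 16.5 CPM, and neighbours among these 6 exchanged places in 3 or more libraries each. Inhibitory neurons had 6.23 ± 2.96 CPM and excitatory neurons 4.70 ± 2.30 CPM. The order of Hspb1 was different: brain endothelial cells had 154 ± 92.4 CPM and exceeded the next class, pericytes (14.96 ± 17.2 CPM), in all 9 libraries. In microglia, astrocytes, oligodendrocytes, their precursors and both neuron classes Hspb1 averaged 1.24 CPM or less.

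**Figure D1:**
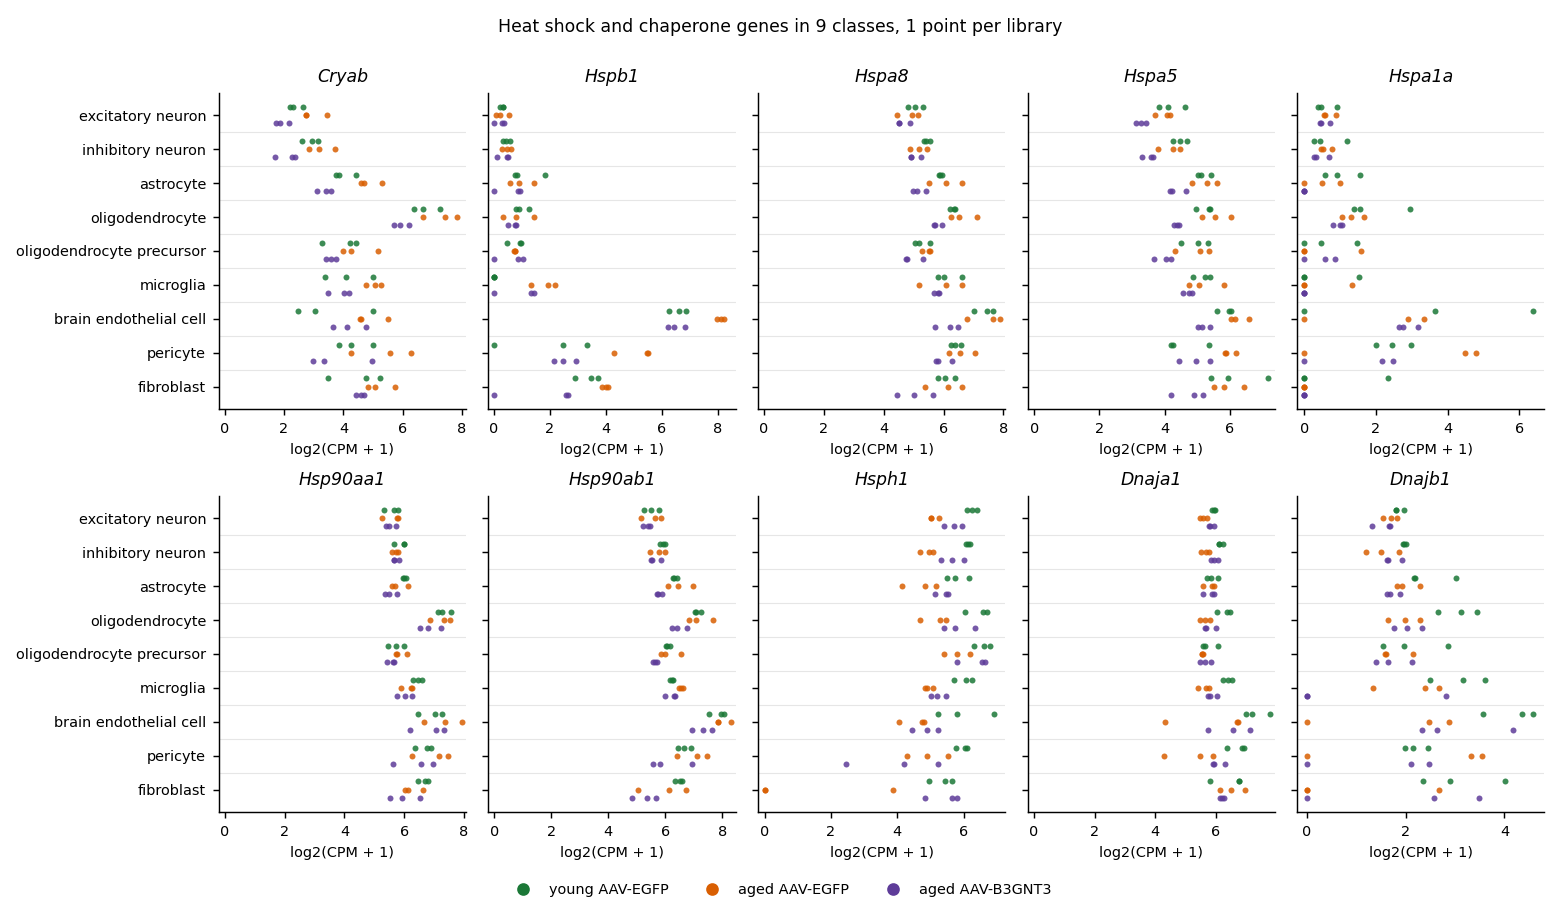
Level of each of the 10 genes, as log2(CPM + 1) on the horizontal axis, in 9 classes on the vertical axis, with 1 point per library coloured by group. Cryab lies highest in oligodendrocytes (113 CPM on average) and Hspb1 in brain endothelial cells (154 CPM), whereas Dnaja1 differs little between neurons and glia.

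Among the HSP70 genes, the constitutive Hspa8 ran from 140 ± 64.5 CPM in brain endothelial cells to 28.3 ± 6.11 CPM in excitatory neurons, which were below inhibitory neurons in all 9 libraries. Hspa5 was highest on average in fibroblasts (56.8 ± 37.9 CPM) and brain endothelial cells (56.5 ± 20.3 CPM), which the spread did not separate. Fibroblasts, with 109 UMIs in all, were above brain endothelial cells in only 2 of 9 libraries, among them young AAV-EGFP replicate 3 (142.8 CPM). Excitatory neurons had the least Hspa5 (13.8 ± 5.03 CPM). The stress-inducible Hspa1a was near 0 outside vessels: it averaged 14.3 ± 25.9 CPM in brain endothelial cells, 7.86 ± 9.62 CPM in pericytes, 1.98 ± 1.83 CPM in oligodendrocytes and 0.605 CPM or less elsewhere. The endothelial mean was carried by young AAV-EGFP replicate 3 (82.6 CPM), and over the other 8 libraries it was 5.76 ± 4.11 CPM. Hspa1a is close to identical in sequence to Hspa1b, so not all of its reads may have been counted for it, which was not tested. It also overlaps Gm20481 on the other strand. Hsp90ab1 was highest in brain endothelial cells (215 ± 57.0 CPM, above oligodendrocytes in all 9 libraries) and Hsp90aa1 in oligodendrocytes (143 ± 32.5 CPM) and brain endothelial cells (138 ± 50.8 CPM), 2 classes that crossed between libraries.

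Hsph1 had another order, with oligodendrocyte precursors first at 78.1 ± 24.0 CPM, above oligodendrocytes (60.4 ± 27.3 CPM) in all 9 libraries, and neurons ahead of microglia and astrocytes on average. Dnaja1 lay between 49.6 ± 7.19 CPM in oligodendrocyte precursors and 110 ± 56.3 CPM in brain endothelial cells. Dnajb1 averaged 10.1 ± 7.98 CPM in brain endothelial cells, from 20 UMIs with 1 library at 0. Fibroblasts came next (5.14 CPM, 11 UMIs), and it was lower in every other class with library values. The 116 choroid plexus epithelial nuclei came from too few libraries for such values. Pooled, they held 72 UMIs of Dnaja1 (87.6 CPM, 95% Poisson interval 68.5 to 110), 7 of Cryab (8.51 CPM, 3.42 to 17.5) and 0 of Hspa1a (upper limit 4.49 CPM). These intervals cover counting error only.

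With age, Hsph1 fell in both neuron classes, astrocytes and oligodendrocytes, Dnaja1 fell in both neuron classes and oligodendrocytes, Dnajb1 fell in oligodendrocytes, and Cryab rose in astrocytes. By edgeR's quasi-likelihood test with Benjamini-Hochberg adjustment over all genes of a class, 9 of 52 pairs of gene and class were called in ageing, 1 higher and 8 lower, where 8.77% of such pairs were called over all genes of the 7 classes. In excitatory neurons 2 of 9 tested genes were called, where 14.8% of all genes were. In inhibitory neurons it was 2 of 8 against 3.11% of all genes, in astrocytes 2 of 7 against 11.6%, and in oligodendrocytes 3 of 8 against 21.1%. No member was called in oligodendrocyte precursors (0 of 7, all genes 0.272%), microglia (0 of 7, all genes 0.011%) or brain endothelial cells (0 of 6, all genes 0.0199%), where 1, 2 and 2 members had an unadjusted p under 0.05 and DESeq2 called 0, 0 and 1. With 6 to 9 members tested in a class, these counts do not set the members apart from other genes. The total of 9 became 14 without aged AAV-EGFP replicate 1, 5 without replicate 2 or 3 of that group, and 2 without young AAV-EGFP replicate 3. The median log2 fold change of the members in ageing was -0.19 in excitatory and -0.28 in inhibitory neurons, 0.10 in astrocytes and 0.02 in oligodendrocytes, beside 0.02, 0.02, 0.00 and 0.02 over all genes tested.

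Hsph1 (ENSMUSG00000029657), the HSP110 exchange factor, lies at chr5:149614287-149636376 on the minus strand of GRCm38, with 12 exons in its longest transcript. It fell with age in all 4 of the largest classes. Excitatory neurons had 75.3, 67.5 and 84.2 CPM in young AAV-EGFP, 31.6, 31.1 and 37.6 CPM in aged AAV-EGFP, and 51.4, 61.2 and 41.4 CPM in aged AAV-B3GNT3. No library of a group overlapped another group, with the treated mice between the aged and the young controls. The ageing difference was -1.18 (log2, SE 0.14, adjusted p = 0.0023), 2.26-fold lower. The treatment difference of 0.62 (SE 0.14, adjusted p = 0.0453) was the only rise that the test called for any member in treatment. The ageing call held without any 1 library. The treatment call was lost without aged AAV-EGFP replicate 1 (adjusted p = 0.0539) or 2 (0.188), without aged AAV-B3GNT3 replicate 1 (0.166) or 2 (0.185), and without young AAV-EGFP replicate 2 (0.0585) or 3 (0.0708). It was also lost with only the 2 groups fitted (0.0734), with the replicate number as a block (0.0644) and with the mitochondrial covariate (0.133).

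Inhibitory neurons showed the same pattern of levels for Hsph1, with 66.0, 69.5 and 71.6 CPM in young AAV-EGFP, 30.3, 24.7 and 32.8 CPM in aged AAV-EGFP, and 49.3, 63.4 and 39.1 CPM in aged AAV-B3GNT3. It fell by 1.24 on the log2 scale in ageing (SE 0.17, adjusted p = 0.0205), and its treatment difference of 0.79 did not pass the test (adjusted p = 0.0949). The ageing call was lost when aged AAV-EGFP replicate 2 (adjusted p = 0.134) or 3 (0.0802) or young AAV-EGFP replicate 3 (0.0777) was left out, and with the replicate number as a block (0.0519). In astrocytes Hsph1 stood at 44.3, 52.7 and 71.0 CPM in young AAV-EGFP, 16.8, 27.3 and 34.8 CPM in aged AAV-EGFP, and 43.1, 44.9 and 34.0 CPM in aged AAV-B3GNT3. The young and aged controls did not overlap (difference -1.05, SE 0.24, adjusted p = 0.0125), whereas aged AAV-B3GNT3 replicate 3 lay below aged AAV-EGFP replicate 3. The astrocyte p was 0.0576 without young AAV-EGFP replicate 3 and 0.0968 with free RNA subtracted.

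Oligodendrocytes had the largest Hsph1 difference with age among the classes tested. Their levels were 64.5, 94.8 and 103 CPM in young AAV-EGFP, 24.8, 43.4 and 37.9 CPM in aged AAV-EGFP, and 52.9, 81.0 and 41.3 CPM in aged AAV-B3GNT3. The ageing difference was -1.30 (SE 0.26, adjusted p = 0.00564), 2.46-fold lower, and held without any 1 library. In oligodendrocyte precursors and microglia, Hsph1 also separated the young from the aged controls without overlap, at differences of -0.77 (adjusted p = 0.136) and -1.13 (adjusted p = 0.174), neither called. The Hsph1 estimate was below 0 in 6 of 6 classes in ageing and above 0 in 6 of 6 in treatment, with the aged AAV-EGFP libraries shared by both. Young AAV-EGFP replicate 3 was the highest of all 9 libraries for Hsph1 in 7 of 9 classes.

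Of the J proteins, Dnaja1 fell with age in 3 classes and Dnajb1 in oligodendrocytes. Dnaja1, a cytosolic partner of HSP70, had 61.0, 57.8 and 60.2 CPM in young AAV-EGFP excitatory neurons, 46.1, 42.9 and 51.1 CPM in aged AAV-EGFP, and 60.5, 54.0 and 55.1 CPM in aged AAV-B3GNT3. It was 1.28-fold lower in ageing (-0.35 on the log2 scale, SE 0.10, adjusted p = 0.0306), and young and aged controls did not overlap. Inhibitory neurons had 67.9, 67.7 and 74.5 CPM, then 49.3, 43.9 and 52.9 CPM, then 60.4, 66.2 and 56.1 CPM in the same order of groups, a fall by 0.52 in ageing (SE 0.11, adjusted p = 0.0418). Oligodendrocytes had 63.8, 81.1 and 86.2 CPM, 48.3, 55.3 and 43.3 CPM, and 48.5, 63.0 and 50.2 CPM. Here the treated libraries lay with the aged controls, and the ageing difference was -0.65 (SE 0.16, adjusted p = 0.0131). Astrocyte Dnaja1 averaged 57.4 ± 8.09 CPM in young and 54.8 ± 6.90 CPM in aged AAV-EGFP, a difference of -0.06. The class comparison of astrocytes with oligodendrocytes did not call this contrast (0.57, adjusted p = 0.0610). Dnaja1 overlaps Gm6297 and Smu1 on the other strand.

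The Dnaja1 calls rested on few libraries in neurons. In excitatory neurons the call was lost without aged AAV-EGFP replicate 2 or any 1 young library (adjusted p 0.0617 to 0.106), and with the mitochondrial share as a covariate (0.0568). In inhibitory neurons it was lost without any library but aged AAV-EGFP replicate 1 and aged AAV-B3GNT3 replicate 3 (adjusted p 0.0539 to 0.148), and without the cluster led by Rarb, Drd2 and Rgs9 (0.0638), with only the 2 groups fitted (0.0679), with the replicate block (0.0692), with the mitochondrial covariate (0.0772) and with free RNA subtracted (0.0538). In oligodendrocytes it was lost without aged AAV-EGFP replicate 3 (0.0577) or young AAV-EGFP replicate 3 (0.0534). Dnajb1, the J protein that is induced by heat, was scarce, with 194 UMIs over the 9 oligodendrocyte sums. These had 5.31, 7.64 and 9.90 CPM in young AAV-EGFP, 2.11, 3.88 and 2.97 CPM in aged AAV-EGFP, and 2.39, 4.05 and 3.06 CPM in aged AAV-B3GNT3. Dnajb1 was 2.47-fold lower in ageing (-1.31, SE 0.34, adjusted p = 0.0169) and its treatment difference of 0.08 was not called. Its ageing call was lost without aged AAV-EGFP replicate 3 (adjusted p = 0.0583) or young AAV-EGFP replicate 2 (0.0505) or 3 (0.0652).

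**Figure D2:**
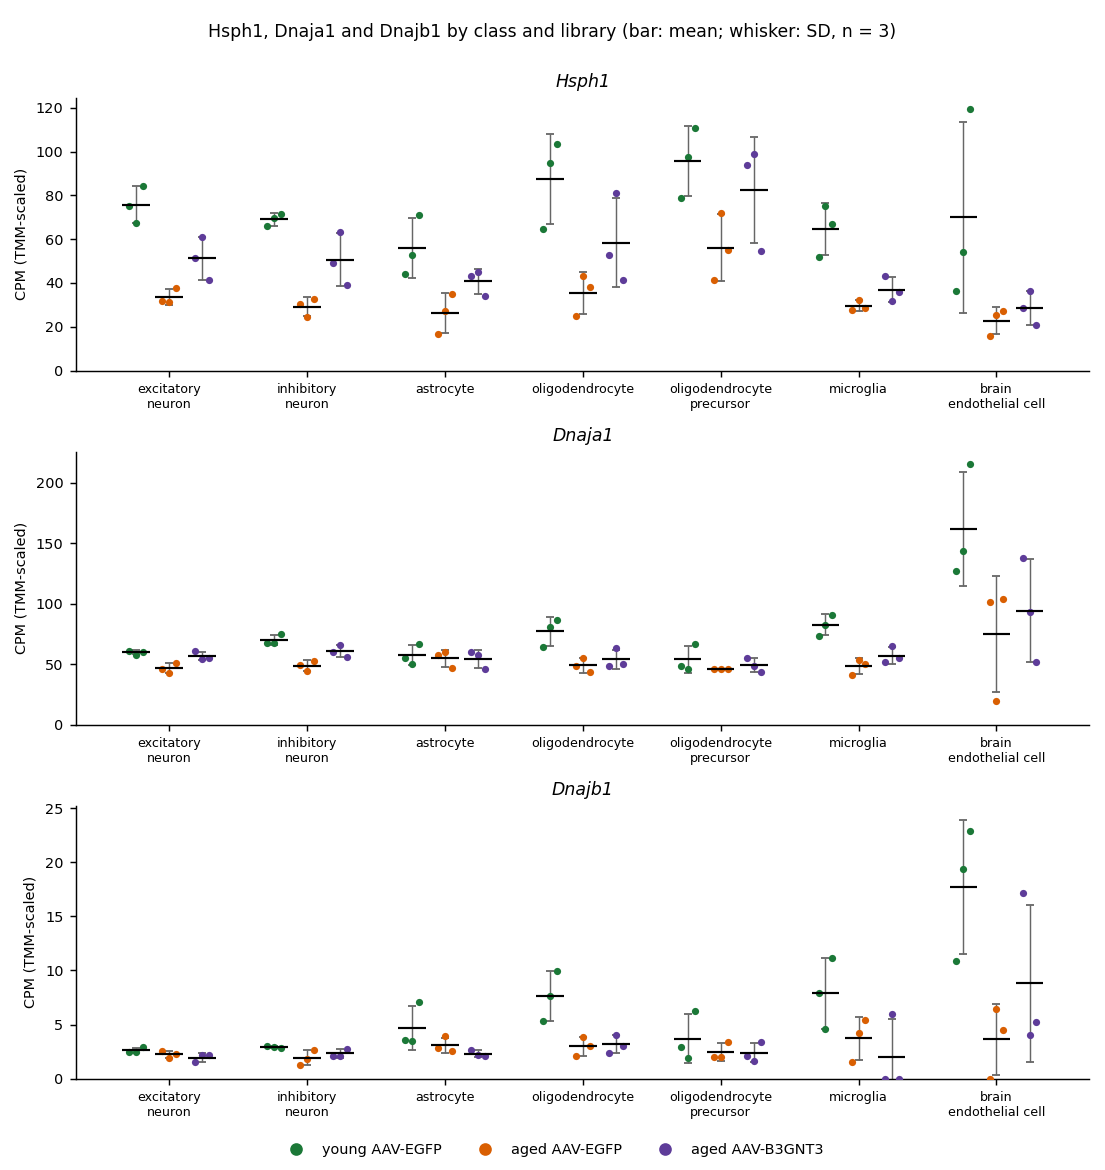
Hsph1, Dnaja1 and Dnajb1 in CPM (vertical axes, starting at 0) in 7 classes, with 1 point per library, the group mean as a bar and the SD as a whisker (n = 3). For Hsph1 the aged AAV-EGFP libraries lie below all young libraries in every class drawn, for example at 24.8 to 43.4 CPM against 64.5 to 103 CPM in oligodendrocytes.

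Cryab (ENSMUSG00000032060, chr9:50751325-50756636, plus strand, 4 exons), the small heat shock protein alpha-B-crystallin, was the only member that the test called higher in ageing. The Hspb1 estimate in brain endothelial cells was larger (1.53) but was not called (adjusted p = 0.0516). For Cryab, astrocytes had 13.3, 20.2 and 12.5 CPM in young AAV-EGFP, 25.2, 38.5 and 23.1 CPM in aged AAV-EGFP, and 7.72, 11.0 and 9.54 CPM in aged AAV-B3GNT3. The 3 groups did not overlap, and the treated libraries lay below the young ones. The ageing difference was 0.90 (SE 0.25, adjusted p = 0.0335), 1.86-fold higher, and the treatment difference was -1.60 (SE 0.27, adjusted p = 0.0128), 3.03-fold lower. Without aged AAV-EGFP replicate 2 the ageing p was 0.166, and it was 0.104 and 0.0979 without young AAV-EGFP replicates 1 and 3. The treatment call was lost only without aged AAV-B3GNT3 replicate 2 (adjusted p = 0.0575) among the libraries left out. Cryab overlaps Hspb2 on the other strand.

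In oligodendrocytes, where Cryab is most abundant, the levels were 81.5, 103 and 153 CPM in young AAV-EGFP, 102, 226 and 170.1 CPM in aged AAV-EGFP, and 51.1, 72.7 and 58.6 CPM in aged AAV-B3GNT3. The young and aged controls overlapped, and their difference of 0.57 (SE 0.27) was not called (adjusted p = 0.140). Leaving out 1 library at a time gave adjusted p from 0.0157 to 0.493 for this difference. Every treated library was below every aged control, by 1.45 on the log2 scale (SE 0.27, adjusted p = 0.0112) or 2.73-fold, and this held without any 1 library. Aged AAV-EGFP replicate 2 was the highest library for Cryab in 8 of 9 classes.

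Excitatory neurons held little Cryab, 3.60, 5.19 and 3.96 CPM in young AAV-EGFP, 5.69, 9.88 and 5.61 CPM in aged AAV-EGFP, and 2.30, 2.65 and 3.45 CPM in aged AAV-B3GNT3. Its treatment difference was -1.33 (SE 0.26, adjusted p = 0.0348), a call lost without aged AAV-EGFP replicate 2 (0.151), aged AAV-B3GNT3 replicate 1 (0.157) or 2 (0.168), or young AAV-EGFP replicate 3 (0.0636), with only the 2 groups fitted (0.0565) or with the mitochondrial covariate (0.122). Inhibitory neurons, oligodendrocyte precursors and microglia had treatment differences of -1.34, -1.03 and -1.18, none called. The estimate was above 0 in 6 of 6 tested classes in ageing and below 0 in 6 of 6 in treatment. Carry-over of free RNA from oligodendrocytes into the other classes was not tested by itself. A subtraction of free RNA estimated from markers of several classes is given at the end of this paragraph. There were 11.7 Cryab UMIs per 1000 UMIs of 7 oligodendrocyte markers in oligodendrocytes, 43.0 in astrocytes, 36.2 in inhibitory and 31.5 in excitatory neurons. The summed markers in astrocytes were 396 to 504 CPM in young AAV-EGFP, 234 to 375 CPM in aged AAV-EGFP and 336 to 359 CPM in aged AAV-B3GNT3, and none of the 7 was at 0 in all libraries. With an estimate of free RNA subtracted, the Cryab treatment call held in astrocytes and was lost in oligodendrocytes (adjusted p = 0.0558), and the astrocyte ageing call was lost (0.104), as it was with the mitochondrial covariate (0.0584).

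In treatment, Cryab, Hspa8, Hspa5 and Hsp90ab1 were called lower in both astrocytes and oligodendrocytes. Their treatment estimates were also below 0 in every other class in which they were tested. Over the 7 classes, 11 of 52 pairs of gene and class were called in treatment, 1 higher and 10 lower, where 2.79% of pairs were over all genes. The members were chosen with earlier results of these data known, so the shares called do not set them apart from other genes. The total of 11 became 5 without aged AAV-EGFP replicate 2, 3 without aged AAV-B3GNT3 replicate 1, and 2 without replicate 2 of that group. It was 4 with free RNA subtracted, 4 with only the 2 compared groups fitted, and 3 with the mitochondrial share of UMIs as a covariate. Astrocytes and oligodendrocytes held 8 of these, 4 of 7 members in astrocytes (all genes 4.64%) and 4 of 8 in oligodendrocytes (all genes 9.53%), all lower. In excitatory neurons 2 of 9 were called (all genes 2.61%) and in brain endothelial cells 1 of 6 (all genes 0.259%). None was called in inhibitory neurons (0 of 8, all genes 0.0455%), oligodendrocyte precursors (0 of 7, all genes 0.0469%) or microglia (0 of 7, all genes 0.0%), with 4, 4 and 1 at an unadjusted p under 0.05 and 3, 0 and 0 called by DESeq2. Over all genes in microglia, edgeR called 0, DESeq2 called 7 and 820 had an unadjusted p under 0.05. The members' median log2 fold change in treatment was -0.79 in astrocytes and -0.57 in oligodendrocytes, beside 0.02 and 0.00 over all genes tested.

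Hspa5 (ENSMUSG00000026864, chr2:34771970-34777547, plus strand, 9 exons), the HSP70 of the ER, had the smallest adjusted p of the members in treatment. Oligodendrocytes had 30.3, 39.8 and 41.1 CPM in young AAV-EGFP, 34.1, 64.5 and 45.4 CPM in aged AAV-EGFP, and 18.3, 19.7 and 20.5 CPM in aged AAV-B3GNT3. The treated libraries were below all others and close together, and the difference of -1.30 (SE 0.21, adjusted p = 0.00778), 2.46-fold lower, held without any 1 library and under every other setting tried. Astrocytes had 33.4, 31.2 and 42.0 CPM, 27.4, 47.2 and 38.1 CPM, and 17.5, 24.3 and 17.0 CPM in the same order, a treatment difference of -0.93 (SE 0.22, adjusted p = 0.0305). The treated libraries were again below all others. That call was lost without aged AAV-EGFP replicate 2 (0.135) or 3 (0.0660) or any 1 treated library (0.0661 to 0.103). Excitatory neurons had 8.71 ± 1.05 CPM in aged AAV-B3GNT3 and 14.97 ± 2.59 CPM in aged AAV-EGFP, without overlap but not called (-0.78, adjusted p = 0.0649).

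Hspa8, the constitutive cytosolic HSP70, followed. In astrocytes it had 61.3, 57.4 and 56.9 CPM in young AAV-EGFP, 44.7, 97.4 and 66.7 CPM in aged AAV-EGFP, and 33.3, 41.7 and 30.7 CPM in aged AAV-B3GNT3. The aged controls spread around the young ones and all lay above the treated libraries, a difference of -0.98 (SE 0.22, adjusted p = 0.0264). In oligodendrocytes the levels were 73.9, 81.3 and 83.0 CPM, 75.0, 139 and 90.4 CPM, and 50.7, 60.7 and 50.9 CPM, a treatment difference of -0.91 (SE 0.19, adjusted p = 0.0155). The astrocyte call was lost without aged AAV-EGFP replicate 2 (0.116) or any 1 treated library (0.0601 to 0.0836), and the oligodendrocyte call without aged AAV-B3GNT3 replicate 1 (0.0534) or 2 (0.0551).

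Hsp90ab1, the constitutive HSP90, was lower with treatment in the same pair of classes. Astrocytes had 77.3, 83.2 and 76.8 CPM in young AAV-EGFP, 85.5, 125 and 67.9 CPM in aged AAV-EGFP, and 52.6, 51.0 and 57.2 CPM in aged AAV-B3GNT3. Oligodendrocytes had 134, 129 and 153 CPM, 112, 201 and 133 CPM, and 74.8, 106 and 83.2 CPM. The aged controls did not overlap the treated libraries in either class, and the differences were -0.79 (SE 0.19, adjusted p = 0.0283) in astrocytes and -0.76 (SE 0.20, adjusted p = 0.0321) in oligodendrocytes. They were lost without aged AAV-EGFP replicate 2 (0.121 and 0.120) or without treated replicates 1 and 2 in astrocytes (0.0853 and 0.138) or any 1 treated library in oligodendrocytes (0.0648 to 0.122). The estimated share of free RNA in astrocytes was 22.96% to 23.7% of UMIs in young AAV-EGFP, 8.56% to 17.1% in aged AAV-EGFP and 13.9% to 20.4% in aged AAV-B3GNT3, and in oligodendrocytes 27.4% to 31.8%, 13.1% to 19.8% and 21.0% to 30.7%. With it subtracted, the treatment calls were lost for Hspa8 (adjusted p = 0.0720 in astrocytes and 0.0681 in oligodendrocytes), for Hsp90ab1 (0.0780 and 0.137) and for Hspa5 in astrocytes (0.0940). With the mitochondrial covariate the same calls were lost (0.0643 to 0.116), and with only the 2 groups fitted they were lost except that of Hspa8 in oligodendrocytes (0.0532 to 0.0611). Hspa8, Hspa5 and Hsp90ab1 each had a treatment estimate below 0 in 7 of 7 classes. None of the 3 was called in ageing in any class. The inducible Hsp90aa1 was called in no class in either comparison, with differences from -0.33 to 0.48 in ageing and -0.48 to 0.01 in treatment.

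**Figure D3:**
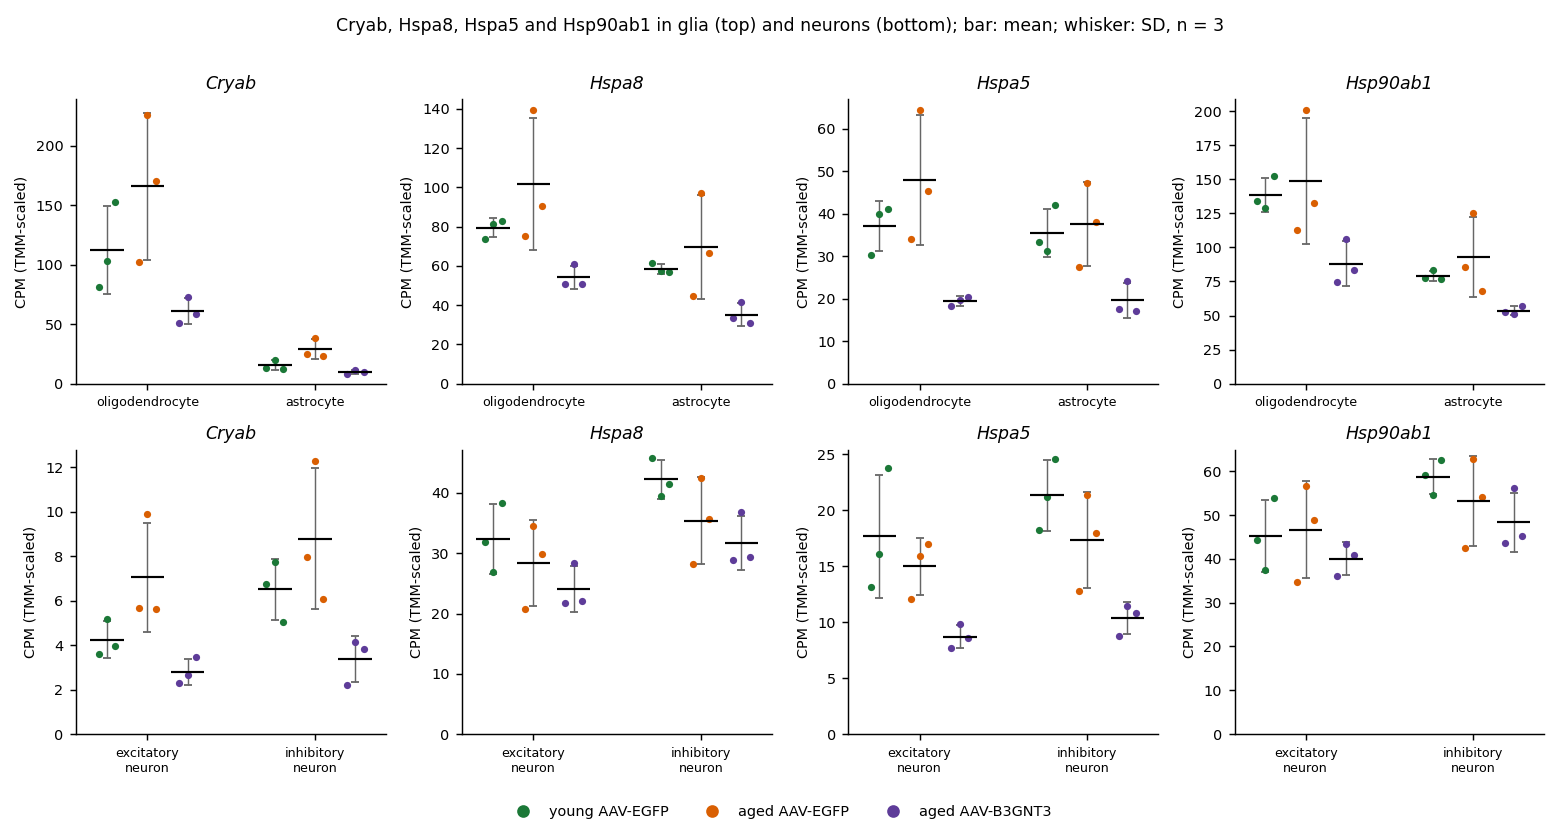
Cryab, Hspa8, Hspa5 and Hsp90ab1 in CPM (vertical axes, starting at 0) in oligodendrocytes and astrocytes in the upper row and in neurons in the lower row, with 1 point per library, the mean as a bar and the SD as a whisker (n = 3). In both glial classes all aged AAV-B3GNT3 points lie below all aged AAV-EGFP points, as for Hspa5 in oligodendrocytes (18.3 to 20.5 CPM against 34.1 to 64.5 CPM).

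Other abundant cytosolic RNAs are given beside these results. Of 7 such genes (Eef1a1, Actb, Gapdh, Tuba1a, Fth1, Ubb and Tpt1), 7 were called higher in ageing (all genes, either direction, 21.1%) and 7 lower in treatment (9.53%) in oligodendrocytes, and 4 (11.6%) and 7 (4.64%) in astrocytes. Their summed level in oligodendrocytes was 623 to 658 CPM in young AAV-EGFP, 1128 to 2049.6 CPM in aged AAV-EGFP and 549 to 637 CPM in aged AAV-B3GNT3. In astrocytes it was 403 to 518 CPM, 649.5 to 1021 CPM and 333 to 383 CPM, and in excitatory neurons 164 to 179 CPM, 228 to 327 CPM and 143 to 167 CPM. The library highest for Cryab and Hsp90ab1 in 8 of 9 classes was aged AAV-EGFP replicate 2. It was also highest for this sum in each of the 9 classes, neurons included, except brain endothelial cells. The part of these RNAs in the results was not tested. A set of 634 barcodes led by mitochondrial genes (median 601 UMIs) was in no class. Pooled, they had 420.3 CPM of Hsp90ab1, 339 of Hsp90aa1, 293 of Hspa8, 124 of Cryab, 119 of Dnaja1, 108 of Hsph1, 91.5 of Hspa5, 11.9 of Dnajb1, 6.78 of Hspa1a and 3.39 of Hspb1.

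Hspb1 (ENSMUSG00000004951, chr5:135887919-135889563, plus strand, 2 exons), a small heat shock protein that binds actin filaments, passed the count filter of the tests within 1 class in brain endothelial cells alone. They had 76.2, 97.01 and 115 CPM in young AAV-EGFP, 249, 275 and 299 CPM in aged AAV-EGFP, and 85.9, 72.9 and 114 CPM in aged AAV-B3GNT3, from 267 UMIs in all. All aged controls were above all other libraries, and the young and treated groups overlapped. The treatment difference was -1.60 (SE 0.28, adjusted p = 0.0309), 3.04-fold lower. The ageing difference was 1.53 (SE 0.27), 2.88-fold higher, and missed the threshold (adjusted p = 0.0516). In this class DESeq2 called 1 member in ageing, as edgeR did with finer clustering. The treatment call was lost without aged AAV-EGFP replicate 3 (0.116), any 1 treated library (0.0754 to 0.273) or young AAV-EGFP replicate 2 (0.0588) or 3 (0.0589), with free RNA subtracted (0.195), with no doublets removed (0.0624), with only the 2 groups fitted (0.0967) and with the mitochondrial covariate (0.0806). In pericytes, which were not tested, the levels were 8.94, 0 and 4.47 CPM, 18.7, 45.0 and 42.9 CPM, and 3.45, 6.65 and 4.53 CPM. The aged controls were again above the rest, but these values came from only 32 UMIs in all.

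Markers of the class and other RNAs are given beside Hspb1. The summed level of 7 endothelial markers (Flt1, Cldn5, Pecam1, Cdh5, Slco1a4, Abcb1a and Adgrl4) was 8692 to 10626 CPM in young AAV-EGFP, 14357 to 15910 CPM in aged AAV-EGFP and 9573 to 11061 CPM in aged AAV-B3GNT3. Their median log2 difference was 0.43 in ageing and -0.61 in treatment. By edgeR 0 of the 7 were called in either comparison, with 3 and 4 at an unadjusted p under 0.05, and DESeq2 called 0 in ageing and 1 in treatment. In pericytes the same markers summed to 199 to 273 CPM in young AAV-EGFP, 327 to 1059 CPM in aged AAV-EGFP and 303 to 501 CPM in aged AAV-B3GNT3. Their part in the Hspb1 levels of either class was not tested. In brain endothelial cells there were 9.81 ± 2.03 Hspb1 UMIs per 1000 UMIs of these markers in young AAV-EGFP libraries. The ratio was 18.2 ± 0.741 in the aged controls and 9.02 ± 2.52 in the treated libraries (SD, n = 3). This ratio was not tested. The 7 abundant cytosolic RNAs summed to 1063.5 to 1455 CPM, 2537.5 to 2723 CPM and 1122 to 1369.7 CPM, and their part in the result was not tested. Immediate-early genes, which respond rapidly to stimulation, summed to 369 to 555 CPM in young AAV-EGFP, 272, 2333 and 919.9 CPM in aged AAV-EGFP replicates 1 to 3, and 218 to 283 CPM in aged AAV-B3GNT3. Of their 6 tested genes edgeR called 0 in ageing (median difference 1.57, 4 at an unadjusted p under 0.05, 0 called by DESeq2) and 0 in treatment (median -1.96, 5 at an unadjusted p under 0.05, 1 called by DESeq2), and their part in the result was not tested either.

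**Figure D4:**
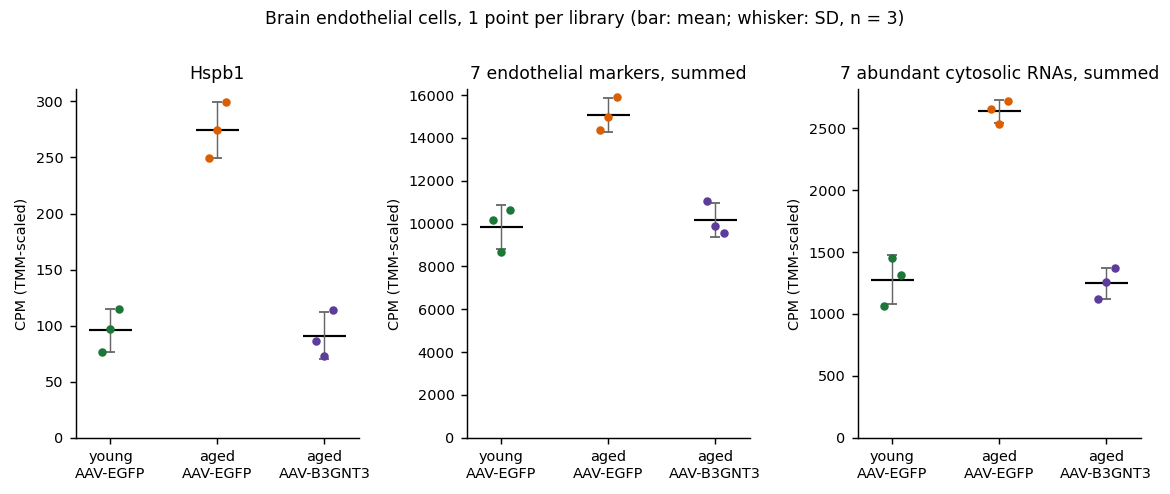
Brain endothelial cells, 1 point per library, with Hspb1, the sum of 7 endothelial markers and the sum of 7 abundant cytosolic RNAs in CPM (vertical axes, starting at 0), the mean as a bar and the SD as a whisker (n = 3). Aged AAV-EGFP lies above both other groups in all 3 panels, at 249 to 299 CPM for Hspb1 against 72.9 to 115 CPM.

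Hspa1a in brain endothelial cells was at 0, 11.6 and 82.6 CPM in young AAV-EGFP, 0, 6.39 and 9.06 CPM in aged AAV-EGFP, and 5.73, 8.10 and 5.19 CPM in aged AAV-B3GNT3, from 28 UMIs. Young AAV-EGFP replicate 3 stood apart, and it was the highest library for Hspa1a in 7 of 9 classes. The same library was highest for Dnaja1 and Dnajb1 in 6 of 9 classes each. Hspa1a passed the count filter of the tests within 1 class in excitatory neurons alone and was not called there (0.25 in ageing and -0.44 in treatment). Hspa8 in brain endothelial cells averaged 181 ± 65.1 CPM in aged AAV-EGFP and 71.1 ± 18.8 CPM in aged AAV-B3GNT3, without overlap but not called (-1.35, adjusted p = 0.108).

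Differences between classes were tested as an interaction of class and group within the same libraries. Between excitatory neurons and oligodendrocytes 1 of 10 members was called in ageing (all genes 9.99%) and 2 of 10 in treatment (all genes 5.1%). The Hspa8 ageing difference was -0.18 in excitatory neurons and 0.36 in oligodendrocytes, and the interaction was -0.52 (SE 0.15, adjusted p = 0.0322). In treatment the Hspa8 difference was -0.24 in excitatory neurons and -0.91 in oligodendrocytes (interaction 0.66, SE 0.15, adjusted p = 0.0137). For Hsp90ab1 it was -0.22 and -0.76 (interaction 0.54, SE 0.13, adjusted p = 0.0254). Without aged AAV-EGFP replicate 2 the 3 calls were lost (adjusted p = 0.279, 0.145 and 0.233), as they were without aged AAV-B3GNT3 replicate 1 (0.126, 0.0943 and 0.207). The Hspa8 ageing call was also lost without young AAV-EGFP replicate 1 (0.116) or 3 (0.140), the Hspa8 treatment call without aged AAV-B3GNT3 replicate 2 (0.0812), and the Hsp90ab1 call without replicate 3 of that group (0.0977). With free RNA subtracted, none of the 3 was called (0.360, 0.356 and 0.415), and with only the 2 groups fitted the Hspa8 ageing (0.150) and Hsp90ab1 (0.1097) calls were lost. For Hsph1 the interaction was 0.11 in ageing (adjusted p = 0.796) and -0.07 in treatment (0.906), and for Cryab 0.14 (0.793) and 0.13 (0.845). No member was called between astrocytes and oligodendrocytes (0 of 8 in each comparison, all genes 4.92% in ageing and 1.87% in treatment). The same held for excitatory against inhibitory neurons (0 of 9 in each, all genes 0.0% in both). By DESeq2 these 4 counts were also 0, and 1, 0, 2 and 0 members had an unadjusted p under 0.05. Over all genes in the neuron pair, edgeR called 0 in both comparisons, 1862 and 825 had an unadjusted p under 0.05, and DESeq2 called 96 and 0.

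**Figure D5:**
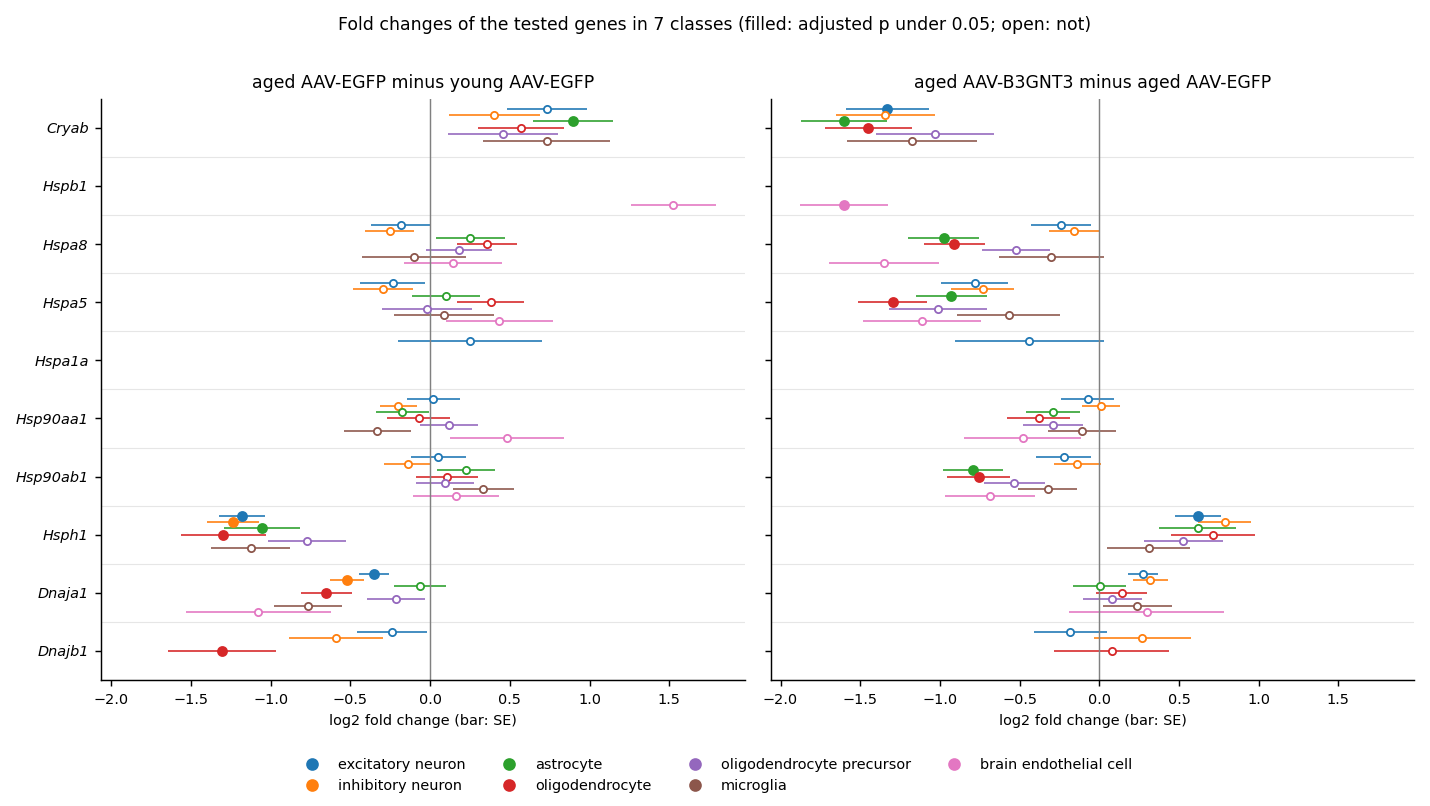
Log2 fold change (horizontal axes) of each tested gene (vertical axis) in 7 classes for ageing on the left and treatment on the right, with the SE as a bar, and filled points for adjusted p under 0.05. Hsph1 lies left of 0 in ageing (-0.77 to -1.30) and right of it in treatment (0.31 to 0.79), and Cryab the other way round, while the treatment points of Hspa8, Hspa5 and Hsp90ab1 all lie left of 0.

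Other genes of the chaperone network were counted in lists. Cochaperones, which pass clients between HSP70 and HSP90 or regulate them, had 2 called higher and 9 lower of 105 pairs of gene and class in ageing and 0 and 3 in treatment. Over all genes 8.77% of pairs were called in ageing and 2.79% in treatment, so these shares were near the background. Stip1, the adaptor that joins HSP70 to HSP90, fell by 0.70 in excitatory neurons, 0.75 in inhibitory neurons and 0.94 in oligodendrocytes (adjusted p = 0.00675, 0.0336 and 0.00442). Chordc1, an HSP90 cochaperone, fell with age by 0.38 in excitatory neurons, 0.57 in astrocytes and 0.84 in oligodendrocytes (adjusted p = 0.0340, 0.0282 and 0.0116). Fkbp4, an immunophilin bound to HSP90, fell by 0.90 in oligodendrocytes (adjusted p = 0.0176). The rises were Bag5 (1.29) and Stub1 (0.70) in oligodendrocytes, named after their values were seen. In treatment Stub1, an E3 ubiquitin ligase that binds HSP70, fell by 0.74 in oligodendrocytes (adjusted p = 0.0454), Bag1 by 0.71 (0.0491), and Ahsa1, which activates HSP90, by 0.70 in excitatory neurons (0.0420).

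Of 73 pairs of the other cytosolic heat shock proteins, 1 was called higher and 4 lower in ageing (all genes 8.77%), and 1 higher and 0 lower in treatment (all genes 2.79%). Dnajb5, a J protein, was 41.5 ± 2.66 CPM in young AAV-EGFP excitatory neurons, 19.5 ± 2.82 CPM in aged AAV-EGFP and 29.9 ± 3.75 CPM in aged AAV-B3GNT3 (SD, n = 3). It fell by 1.09 in ageing (adjusted p = 0.0023) and rose by 0.62 in treatment (adjusted p = 0.0416), and fell by 0.90 with age in inhibitory neurons (adjusted p = 0.0489). Hspa4l, of the HSP110 family like Hsph1, fell by 1.25 in oligodendrocytes (adjusted p = 0.00533). Hspa4 fell by 0.30 and Hspb3 rose by 1.56 with age in excitatory neurons (adjusted p = 0.0361 and 0.0201).

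ER chaperones, the partners of Hspa5, had 1 pair called higher and 10 lower of 95 in ageing (all genes 8.77%) and 0 and 6 in treatment (all genes 2.79%). In excitatory neurons, where 14.8% of all genes were called, 7 of 16 fell with age, among them the protein disulfide isomerases Pdia3 (-0.80, adjusted p = 0.00758) and Pdia6 (-0.80, 0.0119) and Hsp90b1, the HSP90 of the ER (-0.88, 0.00811). The list's median there was -0.43 beside 0.02 over all genes, whereas Hspa5 itself differed by -0.23 and was not called. Oligodendrocytes had 4 of 16 called lower in treatment (all genes 9.53%), including Manf, a secreted ER stress protein (-1.01, adjusted p = 0.00778), Pdia6 (-0.87, 0.00874) and Sdf2l1 (-2.01, 0.0166), with Calr (-0.77, 0.0190) named after its value was seen, and Manf was the list's single rise in ageing (0.76, adjusted p = 0.00753). Astrocytes had 2 of 15 lower in treatment (all genes 4.64%), the J protein Dnajb9 (-1.37, adjusted p = 0.0230) and Manf (-0.87, 0.0374).

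The remaining lists are set beside the same shares over all genes, 8.77% of pairs in ageing and 2.79% in treatment. Subunits of the chaperonin TRiC, which folds actin and tubulin, had 1 of 47 pairs called in ageing (Cct2, -0.43 in excitatory neurons, adjusted p = 0.0385). Mitochondrial chaperones had 1 higher and 1 lower of 34 in ageing (Grpel1, 0.97, and Trap1, -0.47, in excitatory neurons). Heat shock factors had 1 higher and 1 lower of 21 in ageing, both in oligodendrocytes (Hsf5, 0.60, and Hsf2, -0.51, adjusted p = 0.0446 and 0.0427). In treatment edgeR called 0 pairs of these 3 lists, with 3, 6 and 2 at an unadjusted p under 0.05, and DESeq2 called 0, 1 and 0. Immediate-early genes had 1 higher and 5 lower of 54 in ageing and 0 and 1 in treatment, with Jun at a difference of 1.75 in ageing and -1.76 in treatment in oligodendrocytes (adjusted p = 0.00575 and 0.0125) and Arc at -2.02 in ageing in astrocytes (0.00219).

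Over 10 classes, genes were compared with 4 members by the Pearson correlation of mean log2(CPM + 1), as a description. Among 11002 genes with 20 CPM or more in some class, those most like Cryab were Apod (r = 0.984), the class marker Cldn11 (0.964) and Hook3 (0.953), and those most like Hspb1 were Cxcl12 (0.991), Ier3 (0.988) and Ifitm2 (0.982). Hspa1a was closest to Apold1 (0.966), Apcdd1 (0.946) and Acer2 (0.945), and Hsp90ab1 to Rpl24 (0.969), Ubxn1 (0.968) and Rtl8b (0.963). The classes share libraries, and Hspb1, Hspa1a and Hsp90ab1 and the genes named with them all peaked in brain endothelial cells. The Hspa1a peak rests on 28 UMIs and falls from 14.3 to 5.76 CPM without young AAV-EGFP replicate 3. Choroid plexus epithelial cells had 10 or more nuclei in only 4 libraries.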

How the data were processed

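Nuclei from pooled cortex and hippocampus were isolated by Dounce homogenisation, sorted on Hoechst and sequenced with the Chromium 3' kit v3.1. The authors deposited raw UMI counts per gene and barcode, 1 matrix per library, for build mm10. The submitters' notes name Cell Ranger 4.0.0 and the matrix headers name cellranger-7.2.0, and whether intronic reads were counted is not given in the sources used here. Barcodes with 200 to 5000 genes and under 10% mitochondrial UMIs were kept (74895 of 77823) and 4447 doublets removed by simulated-doublet scores at an expected rate of 0.8% per 1000 barcodes. Log-normalised counts of 2000 variable genes, without the members, gave 15 components, 20 neighbours and Leiden clusters at resolution 0.3. A cluster was named when 3 or more fixed markers were 2-fold up and detected in 10% of its nuclei. The scaling of genes and the limit on a cluster's doublet score (0.5) were set after clusters were seen, before any member was read.

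UMIs were summed per library and class and tested with edgeR 4.0.16 (quasi-likelihood, TMM, filterByExpr with a minimum count of 10, all 9 libraries in 1 fit, Benjamini-Hochberg, two-sided, threshold 0.05). Classes were compared by a class-by-group interaction with the library as a block. DESeq2 1.42.0 was an alternative. The steps were tested on simulated data. SE is the log2 fold change divided by the root of F. Called members were given in full, with Cryab in astrocytes and oligodendrocytes always, and up to 3 called genes of smallest adjusted p per other list and class. The members and lists were chosen with earlier results of these data known. The list of abundant cytosolic RNAs held 1 more gene, which is not reported here and is in none of its counts or sums. Free RNA was estimated per library and class from markers of other classes. Across 63 pairs of replicates none agreed within sampling noise (chi-square per degree of freedom 1.59 or more). Among the classes tested, brain endothelial cells were the shallowest, with 130889 to 272763 UMIs per library. Gene spans are from GENCODE vM21 and promoters from RefSeq, both on GRCm38. Of 31053 listed genes 30934 had an identifier in the annotation.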

Additional observations from a re-analysis of the deposited data

Results flagged for a closer look

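The log2 fold change of Hspa8 in both comparisons, and of Hsp90ab1 in treatment, differed between excitatory neurons and oligodendrocytes by the interaction test (edgeR quasi-likelihood, Benjamini-Hochberg over all genes tested). For Hspa8 in ageing it was lower in excitatory neurons by 0.52 on the log2 scale (interaction -0.52, adjusted p = 0.0322), from -0.18 in neurons and 0.36 in oligodendrocytes, neither of which was called. For Hspa8 in treatment the interaction was 0.66 (adjusted p = 0.0137) and for Hsp90ab1 in treatment 0.54 (adjusted p = 0.0254), with a called fall in oligodendrocytes and none in excitatory neurons. DESeq2 called both treatment differences and not the ageing one (adjusted p = 0.0735). In oligodendrocytes 7 abundant cytosolic RNAs (the list summed in the report) had a median difference of 1.18 in ageing and -1.57 in treatment, and in excitatory neurons 0.99 and -1.03, and their part in these differences was not tested.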

How the results depend on the processing

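The 20 called folds of members, Cryab in ageing oligodendrocytes (not called) and the 3 class differences kept their direction under every alternative in which they were fitted. Of the 23 calls, 13 were lost without aged AAV-EGFP replicate 2, 12 without aged AAV-B3GNT3 replicate 1, and 11 each without replicate 2 of that group and without young AAV-EGFP replicate 3. With free RNA subtracted 13 were lost, with only the 2 compared groups fitted 10, with the mitochondrial share as a covariate, where the class differences were not fitted, 11 of 20, and 0 or 1 was lost with DESeq2, RLE size factors, no filter, no doublets removed, no upper limit on genes, finer clustering or members among the variable genes. The causes were not tested, except that a fit of fewer samples has fewer degrees of freedom. The mitochondrial share was 0.00647% to 0.0105% of UMIs. Without a filter on low counts, members called were 14 in ageing (1 each in oligodendrocyte precursors, microglia and brain endothelial cells) and 18 in treatment (3 in inhibitory neurons, 1 in oligodendrocyte precursors), and the class differences in ageing were 1 for astrocytes and 3 for excitatory neurons, each against oligodendrocytes. With the mitochondrial covariate they were 1 each in excitatory neurons, inhibitory neurons and astrocytes in ageing, and 3 in treatment (0 in excitatory neurons, 1 in astrocytes, 2 in oligodendrocytes, 0 in brain endothelial cells). With only the 2 groups they were 1 in inhibitory neurons in ageing and 4 in treatment (0 in excitatory neurons, 1 in astrocytes, 0 in brain endothelial cells), and the class differences were 1 (astrocytes) and 0 (excitatory neurons) in ageing and 1 (excitatory neurons) in treatment. With free RNA subtracted they were 1 in inhibitory neurons and 0 in astrocytes in ageing, and 4 in treatment (1 in astrocytes, 1 in oligodendrocytes, 0 in brain endothelial cells), with 0 class differences for excitatory neurons in both. Without the striatal-like cluster 1 was called in inhibitory neurons in ageing. In microglia 2 were called in ageing and 1 in treatment with no doublets removed, with no upper limit on genes and with finer clustering, and under each of the 3 the excitatory neuron difference in ageing was 2. With no doublets removed 0 were called in brain endothelial cells in treatment. In brain endothelial cells in ageing 1 was called by DESeq2, RLE and finer clustering. DESeq2 called 3 in inhibitory neurons in treatment, and DESeq2 and RLE called 0 excitatory neuron differences in ageing, where RLE called 1 for astrocytes. Leaving out each library in turn gave 2 to 14 calls in ageing and 2 to 13 in treatment. By class, ageing gave 1 to 3 in excitatory neurons, 0 to 2 in inhibitory neurons, 0 to 2 in astrocytes, 1 to 6 in oligodendrocytes and 0 to 1 in brain endothelial cells. Treatment gave 0 to 3, 0 to 1, 0 to 4, 2 to 4 and 0 to 2 in these classes and 0 to 1 in oligodendrocyte precursors. The excitatory neuron differences were 0 to 2 in ageing and 0 to 2 in treatment. A replicate block lost 3 of 20 calls, Hsph1 in excitatory neurons in treatment (0.62, adjusted p = 0.0644) and both in inhibitory neurons in ageing, which left 0, but 13 of 14 comparisons did not show that the shared numbers pair the libraries (deviations of same-numbered libraries correlated at -0.388 to 0.248). The exception was oligodendrocytes in ageing, where the 3 correlations were 0.139, 0.122 and 0.248 and every library correlated best with its own number, and there the block left the 3 calls in place (Hsph1 -1.31, Dnaja1 -0.65, Dnajb1 -1.34).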
